A study of Mus musculus with 12 samples.

Results

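Alcohol and retinaldehyde dehydrogenases were examined in cultured type II alveolar epithelial (AT2) cells, the surfactant-producing cells of the lung alveolus. The set held 10 genes of the 55450 in the count table: the alcohol dehydrogenases *Adh1*, *Adh5* and *Adh7*, the retinol dehydrogenase *Rdh10*, the retinaldehyde reductase *Dhrs3*, and the aldehyde dehydrogenases *Aldh1a1*, *Aldh1a2*, *Aldh1a3*, *Aldh1a7* and *Aldh2*. *Adh7* was chosen by its measured level, which differed both by treatment and by genotype in these libraries, and the others were added as its relatives in function. Its values are therefore given as a description with no test, and counts of changed genes are over the 9 other members. AT2 cells came from *AhRfl/fl* mice, in which the gene of the aryl hydrocarbon receptor (AhR) is floxed but intact, and from *Sftpc-Cre;AhRfl/fl* mice, in which Cre driven by elements of the surfactant protein C locus deletes part of it in AT2 cells. Both lines were on the C57BL/6 background, the mice were young adults, and both genotypes carry the floxed allele. Cells were enriched by removing leukocytes, erythroid cells and Sca-1+ cells and were plated on collagen I. For each genotype, a culture of 24 h with PBS stood against one with 50 µg/ml of cockroach extract (abbreviated CRE, not to be read as the recombinase Cre), which gave 4 groups of 3 libraries. No source used here says whether the 3 libraries of a group came from separate mice or cultures, so p-values measure the spread between libraries, which may be technical.

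Vitamin A reaches cells as retinol and acts after 2 oxidations. Retinol is first turned into retinaldehyde, a reversible step made by RDH10 and by some alcohol dehydrogenases, among which ADH7 (the class IV enzyme of surface epithelia) has a high activity for retinol, while DHRS3 carries out the reverse reaction. Retinaldehyde is then oxidised, irreversibly, to retinoic acid by ALDH1A1, ALDH1A2 and ALDH1A3. Retinoic acid binds nuclear receptors and is broken down by CYP26 hydroxylases. In the lung this pathway is known for its part in the formation and repair of alveoli. The same enzyme families clear ethanol, formaldehyde and lipid aldehydes: ADH5 acts on formaldehyde bound to glutathione, and ALDH2 is the mitochondrial enzyme for acetaldehyde. AhR is a transcription factor switched on by ligands, which binds the DNA core GCGTG together with its partner ARNT.

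Total counts ranged from 68878065 to 80935797 per library. AT2 markers were abundant, with a summed level of the 10 markers between 4495 and 9106 CPM (counts scaled to library size), and none of them was at 0. Club cell markers were abundant too (7 genes, 4054 to 8201 CPM, nearly all from *Scgb1a1*). That sum rests mainly on a single gene and does not by itself show that airway secretory cells were present. Leukocyte markers summed to 3088 to 5204 CPM over 12 genes, nearly all from *Lyz2*, which AT2 cells express too. Mesothelial markers summed to 1649 to 2438 CPM over 6 genes, most of it from the epithelial keratin gene *Krt19*. Fibroblast markers summed to 75.95 to 273.6 CPM over 8 genes. *Ahr* itself was counted at 42.9, 43.8 and 45.1 CPM in *AhRfl/fl* cells with PBS and at 49.6, 40.2 and 45.7 CPM in *Sftpc-Cre;AhRfl/fl* cells with PBS. With CRE it stood at 56.2, 50.5 and 50.1 CPM and at 51.4, 37.7 and 49.5 CPM. These are counts over the whole gene, which include exons outside the deleted part, so they do not check the genotype labels. In bulk RNA, fewer cells of a type and less RNA per cell cannot be told apart.

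The genes lie in the mouse genome (GRCm38, mm10) as follows. *Adh7* (chr3:138217760-138233382), *Adh1* (chr3:138260991-138290698) and *Adh5* (chr3:138443093-138455499) belong to 1 cluster on the plus strand of chromosome 3, with *Adh6a*, *Adh6b* and *Adh4* between *Adh1* and *Adh5*. Those 3 genes were close to silent, with at most 9 counts in any library, whereas *Adh7* had 1843 to 8686 counts. *Aldh1a1* (chr19:20492715-20643465, plus strand) and *Aldh1a7* (chr19:20692953-20727562, minus strand) are neighbours on chromosome 19. *Rdh10* is at chr1:16105774-16133734, *Dhrs3* at chr4:144892827-144928209 and *Aldh2* at chr5:121566027-121593824.

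Sequences bear on what follows in a pair of ways. The first is the AhR core in the windows from 250 bases before to 50 after the transcription start (RefSeq, GRCm38.p6), which were at hand for 7 of the 10 members. No window was at hand for *Rdh10*, *Aldh1a3* and *Aldh2*, so no motif was searched there. GCGTG, searched on both strands, was in 3 of the 11 windows of the 7 members, 1 window each in 3 genes, and in 32.4% of all 32851 windows. Each match is shown in 30 bases on the strand of the gene, with GCGTG or its reverse complement CACGC in capitals.
Adh7: gaacttccaagtCACGCtatttattgaagg
Adh5: agcccctcccctCACGCacggtccagccct
Aldh1a2: gcgcccgcgggaGCGTGggccgcggacttg
The *Adh7* stretch is chr3:138217773-138217802, the *Adh5* stretch chr3:138443097-138443126 and the *Aldh1a2* stretch chr9:71215649-71215678. In *Adh7* the match begins 12 bases after the first transcribed base, inside the transcript, and in *Adh5* 16 bases after it. In *Aldh1a2* it begins 128 bases before it (position -128). Among the 7 members with a window, only the *Adh7* match extends to TNGCGTG. This longer form was held by 1 of the 11 windows and by 5.07% of all windows (GCGTG is part of it). The repeat of AGGTCA with 5 bases between, the form that retinoic acid receptors bind, was in 0 of the 11 windows of members and in 3 windows of all. These matches are letters in a window and say nothing on binding.

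The other is read assignment. *Aldh1a1* and *Aldh1a7* are near copies: their coding sequences of 1503 bases were 91.6% identical, and the longest identical run was 100 bases, from base 757 to base 856 of the *Aldh1a1* coding sequence (GENCODE M21).
Aldh1a1 and Aldh1a7: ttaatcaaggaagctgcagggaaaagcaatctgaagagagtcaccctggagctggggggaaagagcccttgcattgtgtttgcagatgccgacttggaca
Of all words of 31 bases, 281 were common to the transcripts of both, which is 5.70% of those of *Aldh1a1* and 13.8% of those of *Aldh1a7*. Reads from such stretches can be split between the 2 genes, so the level of *Aldh1a7* is the less certain. *Adh7*, *Rdh10*, *Dhrs3*, *Aldh1a2* and *Aldh2* had 0 words in common with any other gene. The coding sequence of *Adh7* was 69.1% identical to that of *Adh1* and 66.7% identical to that of *Adh5*.

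Levels of different genes were compared per length, as FPKM. In *AhRfl/fl* cells with PBS *Rdh10* was the highest member at 132.9 ± 16.0 FPKM (mean ± SD, n = 3), above 99.2% of the genes when averaged over all libraries. It was followed by *Aldh2* at 57.1 ± 1.30, *Aldh1a1* at 26.0 ± 2.22 and *Adh5* at 18.2 ± 1.18 FPKM. *Adh7* at 12.5 ± 1.70, *Dhrs3* at 11.6 ± 0.570, *Aldh1a2* at 10.2 ± 3.84 and *Aldh1a7* at 9.55 ± 0.722 FPKM came next, and the libraries of each of these overlapped with those of its neighbour in the order. *Adh1* (0.714 ± 0.118 FPKM) and *Aldh1a3* (0.0294 ± 0.00871 FPKM) were low, and *Aldh1a3* had only 4 to 62 counts per library. The place of *Adh7* in this order changed with the group: it was the fifth of the members in *AhRfl/fl* cells with PBS and the fourth with CRE, and in *Sftpc-Cre;AhRfl/fl* cells the eighth with PBS and the sixth with CRE. *Rdh10* fell in *Sftpc-Cre;AhRfl/fl* cells with PBS to 48.0 ± 8.21 FPKM, where *Aldh2* stood at 47.1 ± 1.56 FPKM.

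*Adh7* was higher with CRE in both genotypes and lower in *Sftpc-Cre;AhRfl/fl* cells than in *AhRfl/fl* cells under both treatments. In *AhRfl/fl* cells its level was 58.4, 55.0 and 45.8 CPM with PBS and 108.1, 92.3 and 80.6 CPM with CRE. Its level in *Sftpc-Cre;AhRfl/fl* cells was 28.8, 22.4 and 26.7 CPM with PBS and 46.4, 43.0 and 46.0 CPM with CRE. No libraries of the groups compared overlapped, and the *Sftpc-Cre;AhRfl/fl* libraries with CRE lay in the range of the *AhRfl/fl* libraries with PBS or just below it. The means were 53.1 ± 6.51 and 93.7 ± 13.8 CPM in *AhRfl/fl* cells and 26.0 ± 3.26 and 45.2 ± 1.85 CPM in *Sftpc-Cre;AhRfl/fl* cells. CRE thus went with a 1.77-fold and a 1.74-fold higher mean, a log2 fold change of 0.82 (SE 0.13) and 0.80 (SE 0.13). Cells of the *Sftpc-Cre;AhRfl/fl* genotype held 49.0% of the *AhRfl/fl* mean with PBS and 48.2% with CRE, a log2 fold change of -1.03 (SE 0.13) and -1.05 (SE 0.13). The ratio of the CRE response in *Sftpc-Cre;AhRfl/fl* cells to that in *AhRfl/fl* cells was 0.984, with a 95% interval of 0.744 to 1.30. All these values come from the measures that chose the gene. The 8 basal and squamous cell markers, of which 1 or 2 were at 0 in each library, summed to 534.6 to 862.3 and 385.4 to 589.5 CPM in *AhRfl/fl* cells with PBS and CRE, and to 500.9 to 606.2 and 366.9 to 430.3 CPM in *Sftpc-Cre;AhRfl/fl* cells. This sum, nearly all of it from *Sprr1a*, was lower with CRE in each pair of libraries. Over the 6 of these markers that could be tested, the median change with CRE on the log2 scale was 0.12 in *AhRfl/fl* cells and 0.20 in *Sftpc-Cre;AhRfl/fl* cells. Between the genotypes all 6 had lower values in *Sftpc-Cre;AhRfl/fl* cells, from -1.51 to -0.10 with PBS and from -0.89 to -0.11 with CRE, and 0 were called in any of these comparisons. Their part in the level of *Adh7* was not tested.

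**Figure D1:**
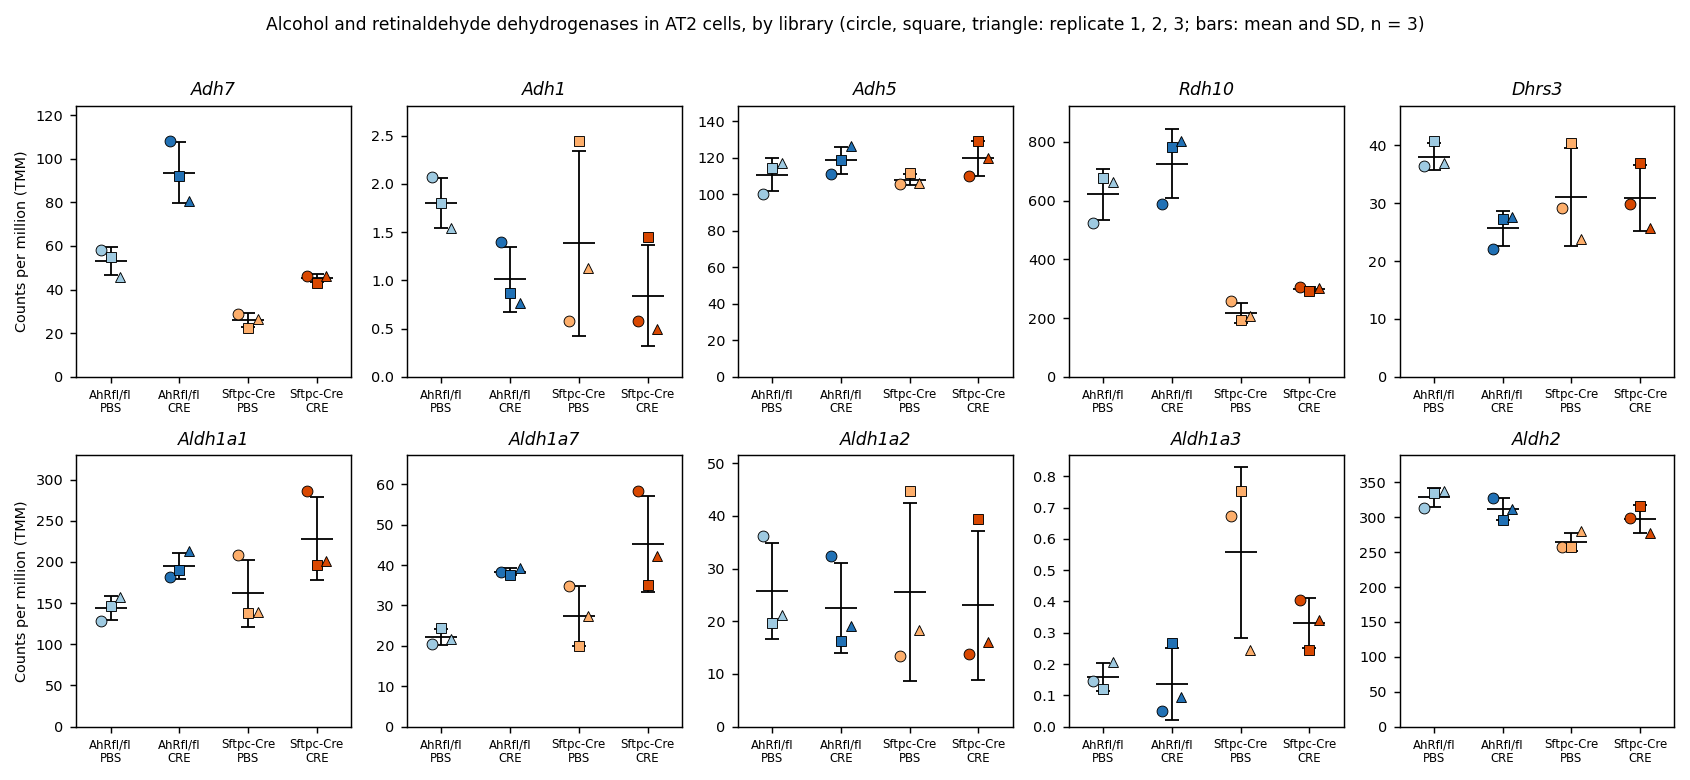
Level of each member in CPM (vertical axes, each from 0) in the 12 libraries, by group, with Sftpc-Cre standing for Sftpc-Cre;AhRfl/fl and with bars for the mean and SD of 3 libraries. Adh7 ranges from 22.4 to 108.1 CPM, and its Sftpc-Cre libraries with CRE overlap with the AhRfl/fl libraries with PBS. Rdh10 splits by genotype, and in Aldh1a2 and Adh1 single libraries stand apart.

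*Rdh10*, which makes retinaldehyde from retinol in membranes and was the most abundant member, was the 1 of the 9 members tested that was called between the genotypes. Its level in *AhRfl/fl* cells was 521.9, 676.3 and 664.6 CPM with PBS and 589.2, 782.8 and 802.2 CPM with CRE. The *Sftpc-Cre;AhRfl/fl* libraries had 257.0, 192.1 and 207.0 CPM with PBS and 305.3, 292.5 and 302.7 CPM with CRE. Every *Sftpc-Cre;AhRfl/fl* library lay below every *AhRfl/fl* library. With PBS the mean fell from 620.9 ± 86.0 to 218.7 ± 34.0 CPM, 35.2% of the *AhRfl/fl* mean (log2 fold change -1.51, SE 0.15, adjusted p = 0.00163). With CRE it fell from 724.7 ± 117.8 to 300.2 ± 6.79 CPM, 41.4% of the *AhRfl/fl* mean (-1.27, SE 0.15, adjusted p = 0.00456). Averaged over treatments the change was -1.39 (SE 0.10, adjusted p = 9.28e-05). It kept an adjusted p under 0.05 when any 1 library was left out, between 0.00182 and 0.0131 with PBS and between 0.00283 and 0.0356 with CRE. With only the 6 libraries compared in the fit, the adjusted p was 0.0501 with PBS. With the replicate number as a block, the adjusted p in edgeR was 0.0656 with PBS and 0.117 with CRE.

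Among the 9 members tested, 1 was called with PBS and 1 with CRE, *Rdh10* in both, against 0.15% and 0.17% of all 20612 genes tested. Averaged over treatments 1 of 9 was called, *Rdh10* again, against 0.631%. The summed AT2 markers were 4495, 6311 and 8732 CPM in the *Sftpc-Cre;AhRfl/fl* libraries with PBS and 7639 to 8609 CPM in the *AhRfl/fl* libraries with PBS, and the *Sftpc-Cre;AhRfl/fl* library with the most AT2 marker RNA had 207.0 CPM of *Rdh10*. The part of AT2 marker RNA in the level of *Rdh10* was not tested. In *Sftpc-Cre;AhRfl/fl* cells *Rdh10* was also higher with CRE in each pair of libraries, by 1.19, 1.52 and 1.46 times (log2 fold change 0.46, SE 0.15, adjusted p = 0.499). That value passed with the libraries of each number paired (adjusted p = 0.0228). In *AhRfl/fl* cells the ratios were 1.13, 1.16 and 1.21 (adjusted p = 0.707, and 0.150 with pairing). The difference between the 2 responses did not pass (0.23, SE 0.21, adjusted p = 1.00).

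*Dhrs3*, which returns retinaldehyde to retinol and is itself a gene that retinoic acid raises, was lower with CRE in *AhRfl/fl* cells. There it was 36.4, 40.7 and 37.0 CPM with PBS and 22.2, 27.3 and 27.5 CPM with CRE, with no overlap. The *Sftpc-Cre;AhRfl/fl* libraries had 29.1, 40.4 and 23.9 CPM with PBS and 29.9, 37.0 and 25.7 CPM with CRE, and these libraries overlapped throughout. The log2 fold change with CRE was -0.57 (SE 0.19, adjusted p = 0.369) in *AhRfl/fl* cells and -0.01 (SE 0.19, adjusted p = 1.00) in *Sftpc-Cre;AhRfl/fl* cells. With pairing the first value passed (adjusted p = 0.0171) and the second did not (adjusted p = 0.985). Within pairs the ratio of CRE to PBS was 0.609, 0.671 and 0.744 in *AhRfl/fl* cells and 1.03, 0.916 and 1.08 in *Sftpc-Cre;AhRfl/fl* cells. The difference of the responses was 0.55 (SE 0.27, unadjusted p = 0.0630, adjusted p = 1.00) and, with pairing, 0.58 (unadjusted p = 0.00140, adjusted p = 0.494), so it did not pass in either fit.

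RDH10 and DHRS3 run opposite reactions and are known to bind each other, so the ratio of their levels was calculated for description after both had been seen. In FPKM, *Rdh10* stood 10.1, 11.7 and 12.7 times above *Dhrs3* in *AhRfl/fl* cells with PBS and 18.7, 20.2 and 20.5 times with CRE. In *Sftpc-Cre;AhRfl/fl* cells it was 6.22, 3.35 and 6.11 times with PBS and 7.19, 5.56 and 8.29 times with CRE. All 6 *AhRfl/fl* libraries were above all 6 *Sftpc-Cre;AhRfl/fl* libraries, and the libraries with CRE and PBS overlapped only in *Sftpc-Cre;AhRfl/fl* cells.

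The aldehyde dehydrogenases that lie together on chromosome 19 had higher levels with CRE in each pair of libraries. *Aldh1a1*, a cytosolic enzyme that makes retinoic acid, was 128.8, 146.0 and 157.6 CPM with PBS and 181.6, 190.1 and 212.8 CPM with CRE in *AhRfl/fl* cells. The *Sftpc-Cre;AhRfl/fl* libraries had 208.1, 137.6 and 139.2 CPM with PBS and 286.4, 196.7 and 201.2 CPM with CRE. Replicate 1 stood above the others in both *Sftpc-Cre;AhRfl/fl* groups, so PBS and CRE overlapped there. *Aldh1a7*, its copy in rodents, was 20.4, 24.4 and 21.8 CPM with PBS and 38.2, 37.5 and 39.3 CPM with CRE in *AhRfl/fl* cells. In *Sftpc-Cre;AhRfl/fl* cells it was 34.8, 19.8 and 27.4 CPM with PBS and 58.4, 35.1 and 42.3 CPM with CRE, and the lowest library with CRE was just above the highest with PBS.

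Averaged over genotypes *Aldh1a7* rose with CRE (log2 fold change 0.76, SE 0.15, adjusted p = 0.0396), the 1 of 9 members called in that comparison, where 1.1% of all genes were called. In the single genotypes the changes were 0.79 (SE 0.21, adjusted p = 0.228) and 0.73 (SE 0.21, adjusted p = 0.391), and 0 of 9 members were called, against 0.233% and 0.262% of all genes. At an unadjusted p under 0.05 there were 3 members of 9 in *AhRfl/fl* cells and 4 of 9 in *Sftpc-Cre;AhRfl/fl* cells, against 9.36% and 6.48% of all genes. For *Aldh1a1* the changes were 0.43 (SE 0.18, adjusted p = 0.497) and 0.50 (SE 0.18, adjusted p = 0.659), and 0.47 (SE 0.13, adjusted p = 0.154) on average. The call for *Aldh1a7* was lost when any of 10 of the 12 was left out (adjusted p up to 0.104) and stayed only without *Sftpc-Cre;AhRfl/fl* CRE replicate 2 or PBS replicate 1.

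Libraries of the same number within a genotype deviated together, and pairing them moved these counts. With pairing 3 of 9 members were called with CRE in *AhRfl/fl* cells (*Aldh1a1* and *Aldh1a7* higher, *Dhrs3* lower), against 3.63% of all genes. Again 3 were called in *Sftpc-Cre;AhRfl/fl* cells (*Aldh1a1*, *Aldh1a7* and *Rdh10*, all higher), against 2.13%. On average 4 were called (those named), against 6.59%. The adjusted p with pairing was 0.00376 and 0.00265 for *Aldh1a1* and 0.00460 and 0.00675 for *Aldh1a7*. Within pairs *Aldh1a1* was 1.41, 1.30 and 1.35 times higher with CRE in *AhRfl/fl* cells and 1.38, 1.43 and 1.45 times in *Sftpc-Cre;AhRfl/fl* cells. The same ratios were 1.88, 1.54 and 1.81 and 1.68, 1.77 and 1.55 for *Aldh1a7*. For the genotypes the intervals of both genes included 1: with PBS the ratio of *Sftpc-Cre;AhRfl/fl* to *AhRfl/fl* was 1.12 (95% interval 0.848 to 1.48) for *Aldh1a1* and 1.23 (0.896 to 1.70) for *Aldh1a7*.

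**Figure D2:**
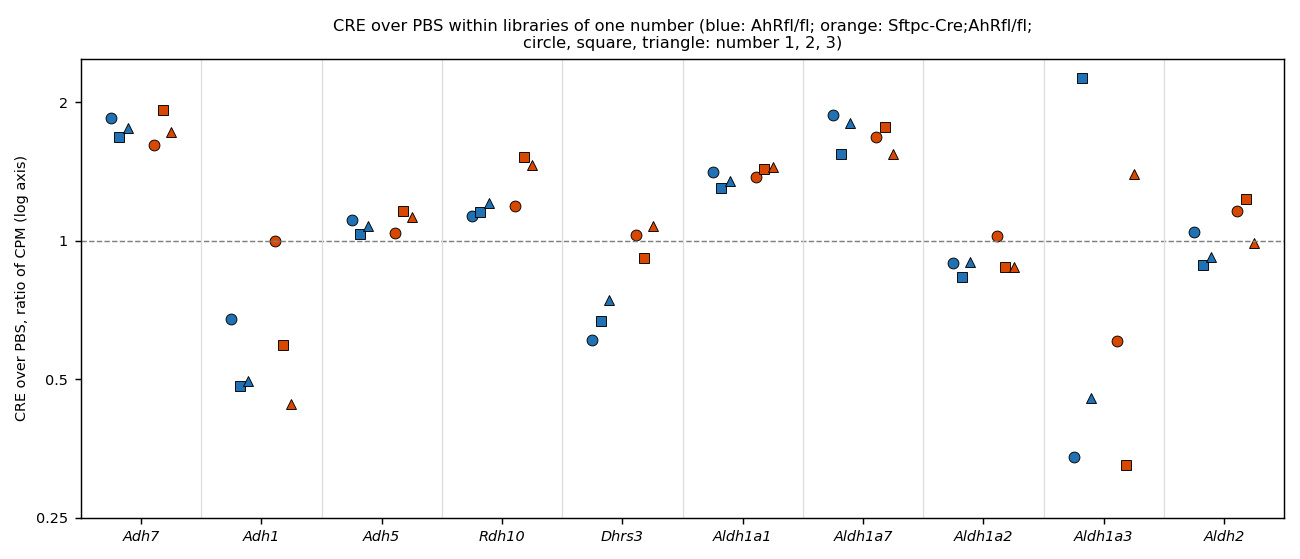
Ratio of CPM with CRE to CPM with PBS (log axis) for libraries of one number, 3 pairs per genotype and member. All 6 ratios of Adh7, Aldh1a7, Aldh1a1 and Rdh10 lie above 1 (lowest 1.13), and so do those of Adh5 (lowest 1.04). Those of Dhrs3 are 0.609 to 0.744 in AhRfl/fl cells and 0.916 to 1.08 in Sftpc-Cre;AhRfl/fl cells.

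The library with the highest *Aldh1a1* and *Aldh1a7* within each *Sftpc-Cre;AhRfl/fl* group, replicate 1, also had the highest club cell markers there: 8201 against 5062 and 4895 CPM with PBS, and 6844 against 4746 and 4390 CPM with CRE. The summed club cell markers were lower with CRE than with PBS in each of the 6 pairs, while both genes were higher. The part of club cells in the levels of these genes was not tested. Markers of AT1 cells, the flat cells that AT2 cells give rise to, were also lower with CRE: their sum over 8 genes was 1669 to 2106 and 1119 to 1403 CPM with PBS and CRE in *AhRfl/fl* cells and 1768 to 2398 and 1294 to 1657 CPM in *Sftpc-Cre;AhRfl/fl* cells, lower in each of the 6 pairs. Averaged over genotypes 3 of the 8 were called, all lower with CRE (*Ager*, *Clic5* and *Rtkn2*), against 1.1% of all genes. The median of the list was -0.51 on the log2 scale. Of the 10 AT2 markers 1 was called in that comparison, also lower. The summed AT2 markers were 7639 to 8609 CPM with PBS and 6697 to 7368 CPM with CRE in *AhRfl/fl* cells. In *Sftpc-Cre;AhRfl/fl* cells they were 4495, 6311 and 8732 CPM with PBS and 4682, 6396 and 9106 CPM with CRE. The part of either list in the response of *Aldh1a7* was not tested. Of the 7 club cell markers *Muc5b* was at 0 in 3 libraries.

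*Aldh1a2*, the retinoic acid enzyme of mesenchymal cells in many organs, differed more between libraries of a group than between group means. It was 36.2, 19.6 and 21.3 CPM with PBS and 32.3, 16.3 and 19.1 CPM with CRE in *AhRfl/fl* cells. Levels in *Sftpc-Cre;AhRfl/fl* cells were 13.5, 44.8 and 18.3 CPM with PBS and 13.8, 39.3 and 16.0 CPM with CRE. Replicate 1 was high in *AhRfl/fl* cells and replicate 2 in *Sftpc-Cre;AhRfl/fl* cells, under either treatment. The 8 fibroblast markers, none of them at 0, summed to 200.4, 86.7 and 159.6 CPM, to 180.4, 75.95 and 153.2 CPM, to 112.9, 273.6 and 85.7 CPM and to 99.3, 233.0 and 85.3 CPM in the same order of libraries. The highest library of each group was thus the same for *Aldh1a2* and for the fibroblast markers, and the part of fibroblasts in *Aldh1a2* was not tested. Its log2 fold changes lay between -0.19 and 0.03 in the 4 comparisons, with adjusted p from 0.983 to 1.00.

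**Figure D3:**
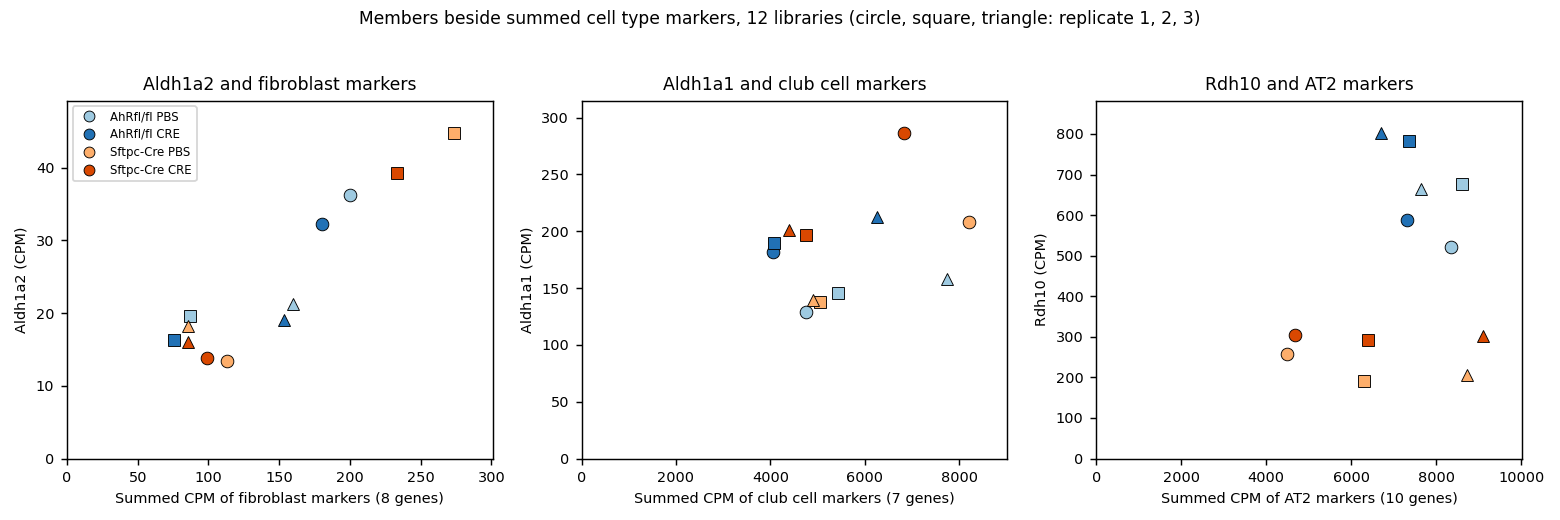
Aldh1a2 against summed fibroblast markers, Aldh1a1 against club cell markers and Rdh10 against AT2 markers, in CPM, 12 libraries. The 4 libraries with the most Aldh1a2 (32.3 to 44.8 CPM) have the most fibroblast marker RNA (180.4 to 273.6 CPM), and all 6 Sftpc-Cre;AhRfl/fl libraries have less Rdh10 than all 6 AhRfl/fl libraries.

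For the other members no comparison passed the test in edgeR. *Adh5* was 100.2, 114.4 and 117.2 CPM with PBS and 111.3, 118.6 and 126.1 CPM with CRE in *AhRfl/fl* cells, and the genotypes differed by a ratio of 0.975 (95% interval 0.861 to 1.104) with PBS and 1.01 (0.890 to 1.14) with CRE. *Aldh2* was 313.3 to 338.0 CPM in *AhRfl/fl* cells and 256.9 to 279.7 CPM in *Sftpc-Cre;AhRfl/fl* cells with PBS. These libraries did not overlap, with a change of -0.31 on the log2 scale (SE 0.07, adjusted p = 0.193). In DESeq2 *Aldh2* passed between the genotypes with PBS (adjusted p = 0.00627) and averaged over treatments (adjusted p = 0.0228). With CRE the *Aldh2* libraries of the genotypes overlapped (-0.07, SE 0.07, adjusted p = 1.00). *Adh1*, the class I enzyme that clears ethanol in the liver, had 0.498 to 2.44 CPM. It was 2.07, 1.80 and 1.55 CPM with PBS and 1.39, 0.871 and 0.765 CPM with CRE in *AhRfl/fl* cells, without overlap (log2 fold change -0.84, SE 0.54, adjusted p = 0.705). *Aldh1a3*, a retinoic acid enzyme of surface epithelia, was 0.147, 0.119 and 0.206 CPM in *AhRfl/fl* cells and 0.672, 0.754 and 0.244 CPM in *Sftpc-Cre;AhRfl/fl* cells with PBS (1.81, SE 0.66, adjusted p = 0.507).

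**Figure D4:**
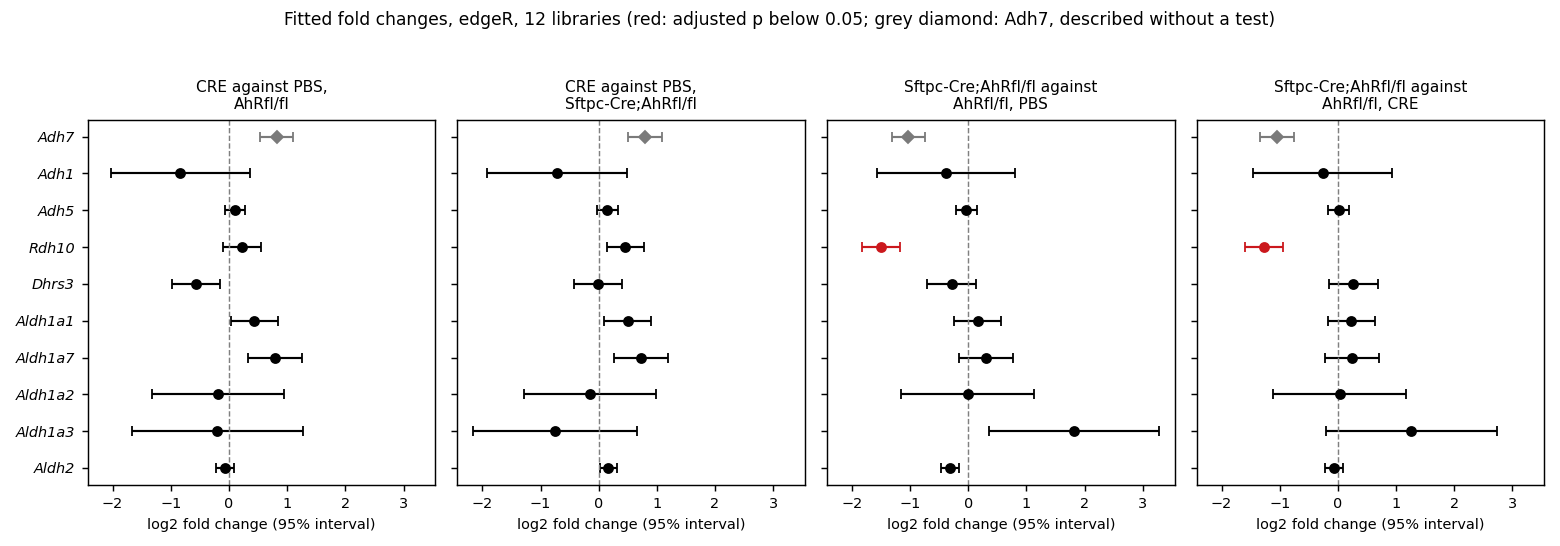
Fitted log2 fold change of each member with its 95% interval in the 4 comparisons, from all 12 libraries. Rdh10 (-1.51 and -1.27) is the member called between the genotypes, and Adh7, drawn in grey, has no test. The intervals of Adh1, Aldh1a2 and Aldh1a3 span over 2 units on the log2 scale in each panel.

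Groups whose libraries did not overlap were common among all genes: 16.5% for CRE in *AhRfl/fl* cells, 11.8% for CRE in *Sftpc-Cre;AhRfl/fl* cells, 14% between genotypes with PBS and 11% with CRE. The members other than *Adh7* counted 4 of 9 (*Aldh1a1* and *Aldh1a7* higher, *Dhrs3* and *Adh1* lower), 2 of 9 (*Aldh1a7* and *Rdh10* higher), 3 of 9 (*Aldh1a3* higher, *Rdh10* and *Aldh2* lower) and 1 of 9 (*Rdh10* lower). The median log2 fold change of the 9 members was -0.08, 0.15, -0.04 and 0.03, and that of all genes tested lay within 0.01 of 0 in each comparison. Of the 9 members 0 passed the test of a difference between the 2 CRE responses, and 1, *Aldh2*, had an unadjusted p under the threshold. Its difference was 0.24 (SE 0.10, unadjusted p = 0.0311 and adjusted p = 1.00 in edgeR). Among all genes that test called 0 in edgeR (0%), also with pairing (0%), with 763 (3.7%) at an unadjusted p under 0.05, and DESeq2 called 23.

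The genes most like *Adh7* over the 12 libraries, by Pearson correlation of log2 CPM among 14541 genes with at least 1 CPM, were *Ptgs2os2* (r = 0.951), *Ptgs2* (0.937), *Creg1* (0.930), *Nqo1* (0.929) and *Aldh3a1* (0.924). All of these, like *Adh7*, had their highest mean in *AhRfl/fl* cells with CRE and their lowest in *Sftpc-Cre;AhRfl/fl* cells with PBS. *Nqo1*, a quinone reductase, ran at 107.7 ± 12.9, 169.9 ± 3.32, 42.9 ± 6.54 and 64.4 ± 9.33 CPM in *AhRfl/fl* cells with PBS and CRE and *Sftpc-Cre;AhRfl/fl* cells with PBS and CRE. *Rdh10* came at place 39 (r = 0.856), *Aldh2* had 0.662 and *Dhrs3* -0.341. Most like *Rdh10* were *Dynlt1b* (0.978), *Ces1g* (0.975) and *Arhgap40* (0.968). For *Aldh1a7* they were *Dtx4* (0.966), *Prnd* (0.951) and *Aldh1a1* (0.934), of which the last shares sequence with it. The 12 libraries share genotype and treatment, so these are descriptions of pattern.

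The wider set of retinoid and alcohol genes, listed by role, was read in the same fit. Among other alcohol dehydrogenases 1 of 4 could be tested (*Adhfe1*, 0.196 FPKM in *AhRfl/fl* cells with PBS) and 0 were called. Of 14 tested among 16 other aldehyde dehydrogenases 1 was called: *Aldh3a1*, which clears aldehydes from lipid peroxidation and is long known as a gene that AhR raises, was lower in *Sftpc-Cre;AhRfl/fl* cells averaged over treatments (log2 fold change -1.53, SE 0.19, adjusted p = 0.00484), a comparison in which 0.631% of all genes were called. Its libraries were 49.6, 91.2 and 65.9 CPM with PBS and 93.2, 131.7 and 127.4 CPM with CRE in *AhRfl/fl* cells, and 30.97, 15.3 and 21.6 CPM and 48.2, 41.0 and 39.7 CPM in *Sftpc-Cre;AhRfl/fl* cells. Each genotype comparison of *Aldh3a1* was free of overlap, and each missed the threshold alone (adjusted p = 0.0645 and 0.121). *Aldh3a2*, the enzyme for fatty aldehydes, stood at 21.6 FPKM and was not called.

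Of the other retinol and retinaldehyde oxidoreductases 13 of 18 were tested. CRE raised 1 in *AhRfl/fl* cells, 2 in *Sftpc-Cre;AhRfl/fl* cells and 2 on average, and the genotypes differed in 0, where 0.233%, 0.262% and 1.1% of all genes were called with CRE and 0.631% between the genotypes on average. *Akr1b8*, an aldo-keto reductase that turns retinaldehyde and other aldehydes into alcohols, was 470.3, 548.5 and 515.0 CPM with PBS and 850.5, 1103 and 1025 CPM with CRE in *AhRfl/fl* cells. Levels in *Sftpc-Cre;AhRfl/fl* cells were 396.5, 376.8 and 473.8 CPM with PBS and 738.9, 905.1 and 1040 CPM with CRE. It rose in both (0.96, SE 0.14, adjusted p = 0.0245, and 1.11, SE 0.14, adjusted p = 0.00921). The first call was lost without *AhRfl/fl* CRE replicate 2 or 3 or any *AhRfl/fl* PBS library (adjusted p up to 0.124) and the second without *Sftpc-Cre;AhRfl/fl* PBS replicate 2 (0.0606). *Akr1b3*, the mouse aldose reductase, rose on average (0.72, SE 0.09, adjusted p = 0.00428), and both averaged calls held without any 1 library. The level of *Akr1b8* with PBS, 303.9 ± 17.7 FPKM, was above that of *Rdh10*, the highest member.

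Uptake, storage and binding genes (14 of 16 tested), nuclear receptors and their cofactors (10 of 11) and retinoic acid hydroxylases (3 of 4) had 0 calls in every comparison. The most abundant of them were *Ces1d* (24.0 FPKM) and *Fabp5* (19.0 FPKM), *Rxra* (12.9 FPKM) and *Rarg* (11.6 FPKM), and *Cyp2s1* (18.1 FPKM), while *Cyp26b1* was at 0.199 FPKM. Of the genes that retinoic acid is known to raise, 13 of 15 were tested and 1 was called: *Tgm2*, a transglutaminase, was higher in *Sftpc-Cre;AhRfl/fl* cells averaged over treatments (0.44, SE 0.06, adjusted p = 0.00798), where 0.631% of all genes were called. *Dhrs3*, also in that list, is described above.

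Genes for other steps of ethanol and aldehyde handling had 11 of 12 tested and 2 called, both higher with CRE averaged over genotypes, where 1.1% of all genes were called. *Cat*, catalase, rose by 0.37 (SE 0.07, adjusted p = 0.0240) and *Cbr3*, a carbonyl reductase, by 0.72 (SE 0.13, adjusted p = 0.0247). Either call was lost in 7 of the 12 fits that left out 1 library (adjusted p up to 0.0769 and 0.0777). The most abundant genes of that list, *Esd* at 376.4 FPKM and *Akr1a1* at 177.4 FPKM, were not called. With pairing *Esd* passed in *AhRfl/fl* cells (log2 fold change 0.44, adjusted p = 0.0284) and on average (0.40, adjusted p = 0.00622).

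**Figure D5:**
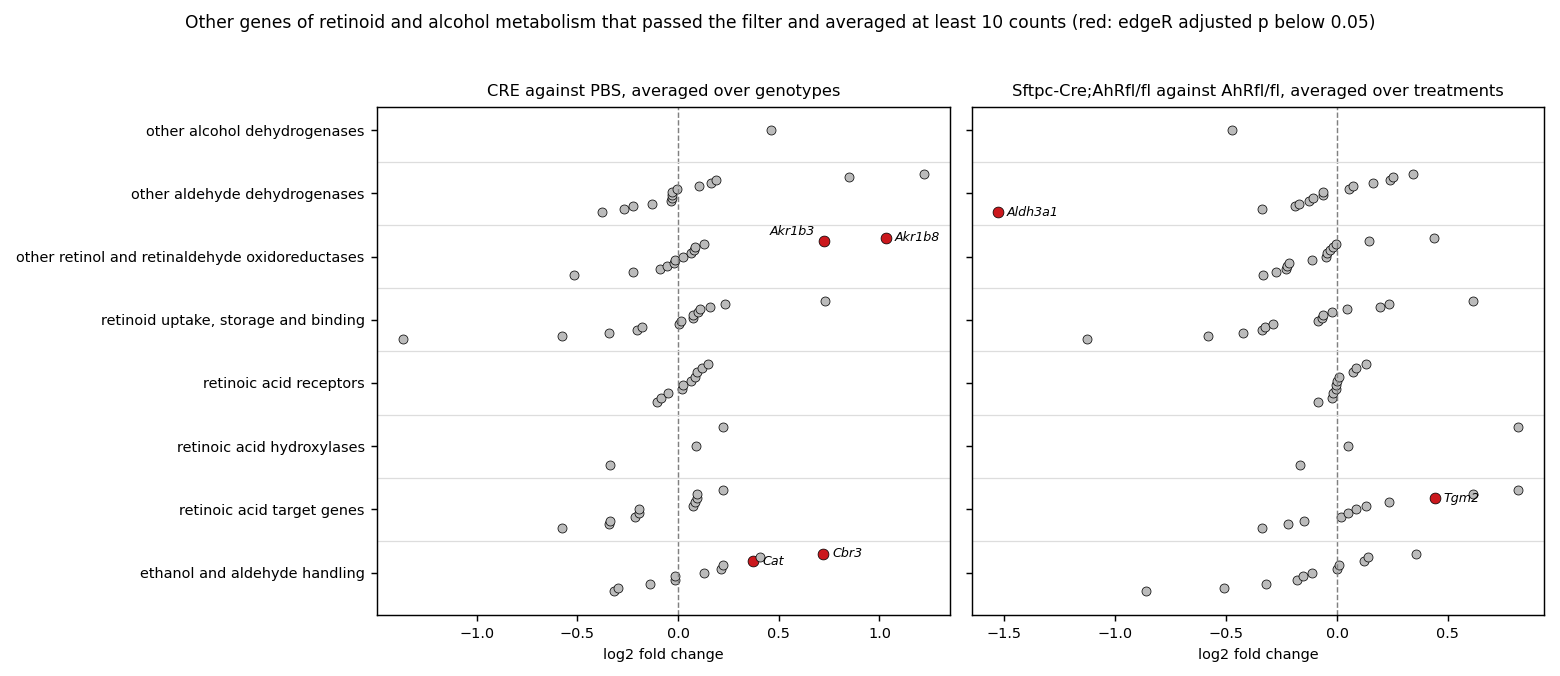
Log2 fold change of the genes in each list that were tested and averaged at least 10 counts, for CRE against PBS averaged over genotypes (left) and for the genotypes averaged over treatments (right). The called genes are Akr1b3, Akr1b8, Cat and Cbr3 on the left, all above 0, and Aldh3a1 (-1.53) and Tgm2 (0.44) on the right.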

How the data were processed

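The authors prepared stranded mRNA libraries from AT2 cells, aligned reads to GRCm38 with STAR 2.7.2b and took gene counts with Salmon. The deposited count is a whole number per gene, not normalized. Salmon estimates need not be whole, and the sources used here do not give the rounding. The deposited FPKM was made by the authors and holds 0.0001 where the count is 0. Their annotation is named as RefSeq, whereas all 55450 gene IDs were found in GENCODE M21, which gave symbols and positions here.

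Counts were scaled with TMM and filtered with filterByExpr (minimum count 10), leaving 20612 genes and all 10 members. One fit of 4 group means to 12 libraries was tested with edgeR 4.0.16 (R 4.3.3, quasi-likelihood, two-sided) with Benjamini-Hochberg adjustment over all genes at 0.05, and "called" means past that threshold. SEs are the log2 fold change over the root of F. CPM is the count scaled by the TMM library size, and FPKM served only for levels between genes. The script was tested on simulated data. Python 3.11.15 made tables and figures. Groups came from the labels, and no library was left out.

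The members and gene lists were chosen with earlier results of these data known. Named genes were all members, and from each wider list the called genes and the 2 with the highest FPKM in AhRfl/fl cells with PBS. The most similar genes are 5 for *Adh7* and 3 for each other called member.

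Whether replicate numbers pair libraries was checked by correlating deviations from group means over 14542 genes. The numbers come from the sample labels, which do not say what they mark. Between CRE and PBS same-numbered libraries gave 0.729, 0.418 and 0.651 in AhRfl/fl cells and 0.589, 0.542 and 0.325 in Sftpc-Cre;AhRfl/fl cells, so values with pairing stand beside the CRE results. Between genotypes same-numbered libraries gave 0.42, 0.0415 and 0.106 with PBS and 0.413, -0.0286 and 0.0867 with CRE. Libraries numbered 1 thus deviated together across genotypes, and those numbered 2 and 3 did so little or not at all. Sftpc-Cre;AhRfl/fl number 2 against AhRfl/fl number 3 gave 0.283 with PBS and 0.361 with CRE. Whether any number marks a batch shared by the genotypes was not tested.

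Alternatives were DESeq2 1.42.0, RLE size factors, no filter, limma 3.58.1 on log2(FPKM + 1), the study's limma-trend rule (unadjusted p under 0.05, absolute log2 fold change above 0.5), only the 6 libraries compared, a replicate block and leaving out each library. Intervals are 95%.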

Additional observations from a re-analysis of the deposited data

Results flagged for a closer look

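Among the members and named genes, 2 had a CRE response that ran one way in every pair of *AhRfl/fl* libraries and the other way in every pair of *Sftpc-Cre;AhRfl/fl* libraries. The share of all genes with such opposite pairs was not calculated, so this count is a description and no result about these genes. *Cyp26b1*, which breaks down retinoic acid, was 1.53, 0.728 and 1.34 CPM with PBS and 1.27, 0.616 and 0.684 CPM with CRE in *AhRfl/fl* cells. In *Sftpc-Cre;AhRfl/fl* cells it was 1.24, 0.572 and 0.461 CPM with PBS and 2.03, 1.24 and 1.07 CPM with CRE. The difference of the responses was 1.42 on the log2 scale (SE 0.67) and did not pass (edgeR, unadjusted p = 0.0586, adjusted p = 1.00, and 0.494 with pairing), and the gene had 34 to 160 counts per library. *Akr1a1*, an aldehyde reductase, had a difference of 0.20 (SE 0.10, unadjusted p = 0.0687, adjusted p = 1.00, and 0.494 with pairing). It was 513.0, 590.1 and 539.0 CPM with PBS and 485.7, 520.9 and 507.8 CPM with CRE in *AhRfl/fl* cells, and 447.3, 505.1 and 465.4 CPM against 490.1, 514.0 and 499.1 CPM in *Sftpc-Cre;AhRfl/fl* cells. Groups of 3 libraries were too small to look for single outlying libraries.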

How the results depend on the processing

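Counts of members called, of 9, changed as follows. The shares of all genes called by edgeR, DESeq2, the study's rule and the blocks are given in the next paragraph. For CRE in AhRfl/fl cells (0 in edgeR) DESeq2 gave 1, the study's rule 2 and the replicate block within genotype 3. For CRE in Sftpc-Cre;AhRfl/fl cells (0) the study's rule gave 2 and the block 3. Between genotypes with PBS (1) DESeq2 and the study's rule gave 2 and the replicate number as a block 0. Only the 6 libraries compared also gave 0, where 12 of the 20612 genes tested were called. With CRE (1) the study's rule gave 2 and the block 0. For CRE averaged over genotypes (1) DESeq2 gave 3 and the block 4. There log2(FPKM + 1) gave 0, with 265 of all genes called, and leaving out 1 library 0 to 2, with 128 to 224 of all genes called. Between genotypes averaged over treatments (1) DESeq2 and the study's rule gave 2. All other alternatives kept these counts.

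With the replicate number as a block *Rdh10* kept its log2 fold change between genotypes (-1.51 with PBS, -1.26 with CRE) at an adjusted p of 0.0656 and 0.117, and stayed called on average (0.0102). In the same fit *Aldh3a1* and *Tgm2* lost their averaged calls (adjusted p = 0.0928 and 0.0926). All genes called in that fit fell to 15 (0.0728%) with PBS and 22 (0.107%) with CRE, from 31 and 35. Pairing within genotype also called *Aldh3a1* (0.0410 and 0.0275) and *Cat* (0.00376 and 0.00416) with CRE in both genotypes, *Akr1b3* (0.00182), *Cbr3* (0.0435) and *Esd* (0.0284) in AhRfl/fl cells and, on average, *Aldh3a2* (0.0264), *Aldh3a1* (0.00502) and *Esd* (0.00622), all higher, and *Tgm2* (lower, 0.0102). All genes called with CRE by edgeR, DESeq2 and the paired fit were 48 (0.233% of genes tested), 409 (1.98%) and 748 (3.63%) in AhRfl/fl cells, and 848 (4.11%) by the study's rule. In Sftpc-Cre;AhRfl/fl cells they were 54 (0.262%), 254 (1.23%) and 439 (2.13%), and 696 (3.38%) by the study's rule. Averaged over genotypes they were 226 (1.1%), 740 (3.59%) and 1358 (6.59%), and 828 (4.02%) by the study's rule. Between genotypes edgeR, DESeq2 and the study's rule called 31 (0.15%), 243 (1.18%) and 846 (4.1%) with PBS and 35 (0.17%), 174 (0.844%) and 705 (3.42%) with CRE. Averaged over treatments they called 130 (0.631%), 522 (2.53%) and 847 (4.11%), against 65 (0.315%) with the block.

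The call of *Akr1b3* in Sftpc-Cre;AhRfl/fl cells (0.82, adjusted p = 0.0357) stayed in only 2 of 12 fits that left out 1 library, without Sftpc-Cre;AhRfl/fl CRE replicate 1 or PBS replicate 3. *Cat* lost its call without AhRfl/fl CRE replicate 2 or 3 or PBS replicate 1 or 3, or Sftpc-Cre;AhRfl/fl CRE replicate 3 or PBS replicate 1 or 2. *Cbr3* lost it without AhRfl/fl CRE replicate 1 or 3 or any AhRfl/fl PBS library, or Sftpc-Cre;AhRfl/fl CRE replicate 2 or 3. Of 1300 member values under the alternatives, 1255 kept their side of the threshold and their size within the spread, 14 lost a call, 22 gained one and 9 moved, all of *Adh1* and *Aldh1a3*. These values include those of *Adh7*, which has no test, so for that gene only size and direction were judged. No called value changed sign, while 68 values that were called in neither fit did. The cause of these changes was not tested. The values of *Adh7* over these fits lay between 0.69 and 0.92 with CRE and between -1.15 and -0.89 between genotypes. The fits reuse the libraries by which the gene was chosen, so this range is a description and no test.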
